A study of Mus musculus with 14 samples.

Results

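Homozygous loss of Chd7 in granule neuron progenitors (GNPs) was compared with wild type (WT) in 9 of the 14 libraries of the study, 4 labelled Hom and 5 labelled WT. The cells were isolated from mouse cerebella at postnatal day 7, and their total RNA was sequenced. Hom libraries came from Atoh1-Cre::Chd7 f/f mice, in which Cre driven by Atoh1 recombines both floxed copies of Chd7 in the granule cell lineage. The first 3 WT libraries are labelled as wild type for Chd7, and the other 2 as negative for Atoh1-Cre. The WT genotype was Chd7 f/f without Cre, and the mice were bred on C57BL/6N, although the strain is labelled as C56Bl6/J for WT and Hom of batch 1 and as C57BL/6 for those of batch 2. The 5 libraries of Atoh1-Cre::Chd7 f/+ mice (Het), which keep 1 intact copy, entered the model to estimate the spread and the batch. Hom mice differed from WT mice both in carrying Cre and in losing Chd7, and Het mice carried Cre as well, so values in Het are given beside those in Hom for several genes. Some Chd7 protein remained in the posterior lobe of mutant mice according to the study, which names less efficient recombination there as the probable reason, and pups of either sex were used without distinction. WT 1 to 3 and Hom 1 and 2 belonged to sequencing batch 1, and WT 4 and 5 and Hom 3 and 4 to batch 2. The female transcript Xist and the Y-linked Eif2s3y were both present in WT 1, WT 5, Hom 1, Hom 3 and Hom 4. These libraries thus held RNA of both sexes. WT 2, WT 4 and Hom 2 held almost no Eif2s3y, and WT 3 almost no Xist. Nothing in the labels says that the libraries of a group came from separate animals, so the p-values measure the spread between these libraries.

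GNPs divide in the external granule layer at the surface of the cerebellum, then leave the cell cycle, extend axons (the parallel fibres), migrate inwards past the Purkinje cells and become granule neurons, the most abundant neurons of the brain. Chd7 is a chromodomain helicase that uses ATP to shift nucleosomes, and it acts largely at enhancers. Heterozygous mutations of the human gene cause CHARGE syndrome, in which the cerebellum can be underdeveloped.

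Levels are given as TPM, the share of a gene among all transcripts of a library, adjusted for transcript length and scaled to the same total in every library. The model was fitted to log2(TPM + 1), so that all changes below are differences on that scale, Hom minus WT, and understate the change of genes at low TPM. Of 41381 genes in the table, the 17325 that reached 1 TPM in 4 or more of the 14 libraries were tested. A gene is described as called, and as higher or lower, when its adjusted p from limma was under 0.05.

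Chd7 itself was examined first. Its TPM values were 121, 152, 132, 203 and 272 in WT 1 to 5 and 172, 185, 149.9 and 126 in Hom 1 to 4, and its change of -0.11 (SE 0.20, adjusted p 0.862) was smaller than the spread between libraries. In batch 1 the Hom libraries lay above all 3 WT libraries, against their labels, and in batch 2 they lay below both. The TPM of a gene sums over its exons, the deleted ones included, and does not resolve the deletion. The names WT and Hom therefore stand below for the libraries so labelled, and every direction rests on those labels. Atoh1, the factor whose promoter drives the Cre and which keeps GNPs dividing, had 21.3, 24.9, 25.02, 28.2 and 50.6 in WT 1 to 5 and 39.3, 20.8, 29.3 and 29.99 in Hom 1 to 4, and its change of 0.01 (SE 0.25, adjusted p 0.991) was within the spread between libraries. Its sign turned negative in several other fits. Of the 41 genes tested within 5 Mb of Chd7, itself included, 0 were called by limma.

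Markers of the cells that a GNP preparation can hold were summed in each library, as the plot of marker sums shows. The 10 progenitor markers were present in every library, at 2503 to 3655 TPM in WT and 2775 to 3124 TPM in Hom, with 1 of 10 (Ccnd1) called higher. The 8 markers of newly differentiating granule neurons summed to 3114 to 3758 TPM in WT and 2429 to 3010 TPM in Hom, and 3 of 8 were lower (Neurod1, Stmn2 and Tubb3). The 11 markers of Bergmann glia and astrocytes summed in batch 1 to 1232 to 1926 TPM in WT and 587 to 591 TPM in Hom. In batch 2 they summed to 473 to 927 TPM in WT and 380 to 747 TPM in Hom. The 9 endothelial markers summed in batch 1 to 36.1 to 47.1 TPM in WT and 124 to 396 TPM in Hom. In batch 2 they summed to 139 to 239.9 TPM in WT and 236 to 338 TPM in Hom. Purkinje cell markers summed in batch 1 to 153 to 197 TPM in WT and 55.1 to 60.4 TPM in Hom. In batch 2 they summed to 54.1 to 57.6 TPM in WT and 38.8 to 47.8 TPM in Hom. Of the defining genes, 2, Shh and Skor2, were below 1 TPM in every library. No glial or endothelial marker was called by limma, yet these sums separated the 3 WT libraries of batch 1 from most others. The median change was 1.52 for the endothelial markers, with 1 of 9 below 0, and -0.81 for the glial ones, with 9 of 11 below 0. With glial and endothelial marker levels as covariates, a setting chosen after seeing the data, the model called 209 lower and 135 higher genes. In bulk RNA, fewer cells of a type and less RNA per cell cannot be told apart.

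**Figure D1:**
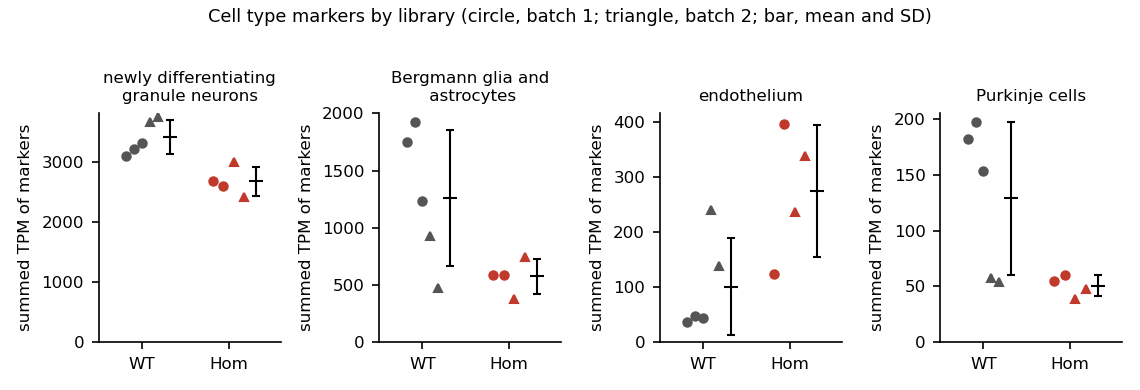
Summed TPM of the markers of 4 cell types in each library labelled WT or Hom (circles, batch 1; triangles, batch 2), with the mean and SD of each group. The sums for newly differentiating granule neurons of all 4 Hom libraries (2429 to 3010 TPM) lie below all WT libraries (3114 to 3758 TPM), and the glial, endothelial and Purkinje cell sums of WT in batch 1 stand apart from those of WT in batch 2.

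Of the 17325 genes, 245 (1.41%) were lower in Hom and 220 (1.27%) were higher, 2.68% in either direction. The median change of all genes was 0.02. Without adjustment, 1112 genes with a change below 0 and 1475 with a change above 0 had p under 0.05 (limma). Unadjusted counts given for families below are to be read beside that background. For a small family, 0 called genes is close to the share of all genes. In WT the lower genes were the more abundant ones, with a median of 35.2 TPM. The median in WT was 12.8 TPM for the higher genes and 17.7 TPM for all genes tested. In WT, 63 lower but 8 higher genes reached 100 TPM. WT is itself a side of the comparison, so part of this gap follows from the calling. Levels in Hom were not compared in this way. When libraries were compared within their batch, Hom lay entirely below WT for 239 of the 245 lower genes and entirely above for 218 of the 220 higher genes. Among all genes tested the shares were 3.56% and 5.44%. The genes were called on these same libraries, so this separation follows largely from the calling and is no separate evidence. Protein-coding genes made up 225 of the lower and 210 of the higher genes, and 8 of the other lower genes were lincRNAs. Within batch 1 alone the model called 79 lower and 83 higher genes, and within batch 2 alone, with 2 libraries in each group, 4 and 0 (limma; without adjustment, 1360 lower and 1409 higher genes had p under 0.05). In the fits that each left out 1 library the counts were smallest without Hom 1, with 147 lower and 140 higher, and without Hom 4, with 161 and 137. Lower genes were also over 1.5 times fewer without WT 2 (160) and without WT 3 (162), and 120 lower and 109 higher genes were called in all 9 such fits. Each called gene named below kept its sign in all 9, which a call on these same libraries makes likely.

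Functions were described with 28 gene lists and 44 families, which together held 157 of the 465 called genes. Of these 72 sets, 55 had a called member. In 17 sets only lower members were called, in 14 only higher ones, and in 24 both, so that within many families of receptors, channels and adhesion molecules some members were lower and others higher. The bar chart of called members gives the sets with at least 3.

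**Figure D2:**
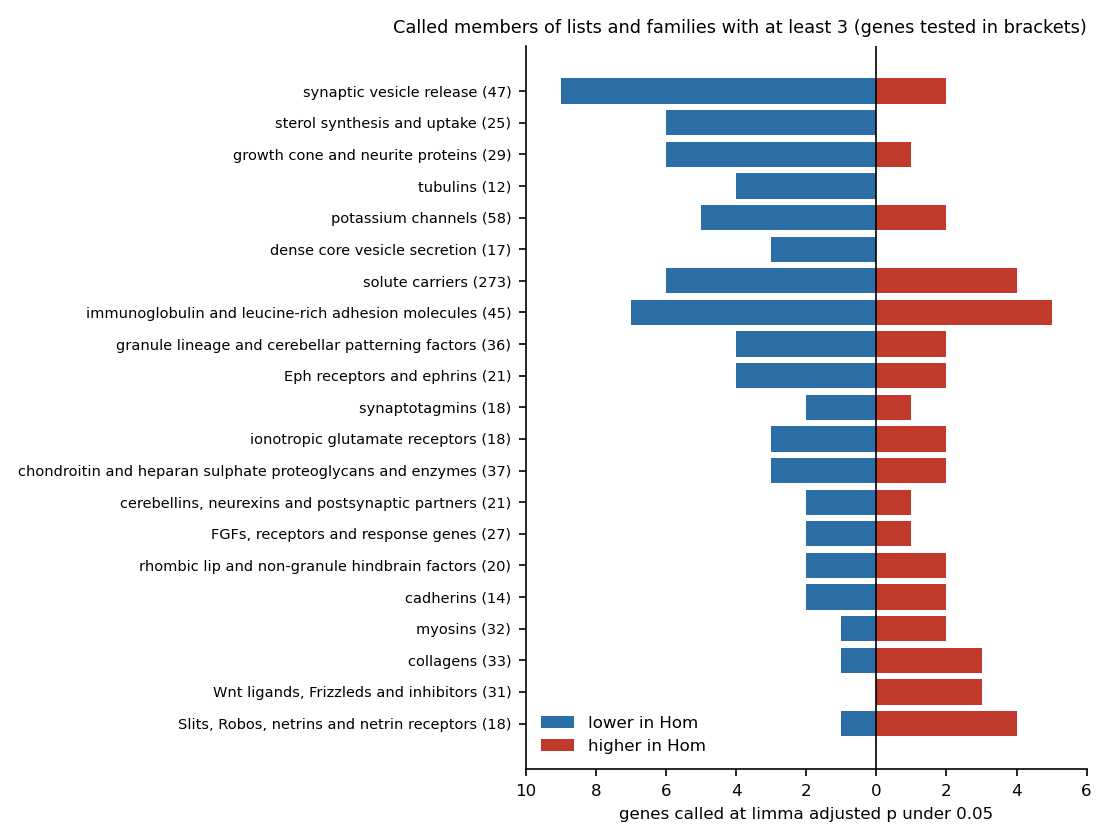
Number of members called lower (left, blue) and higher (right, red) in Hom for the lists and families with at least 3 called members, with the number of genes tested in brackets. Synaptic vesicle release had 9 lower and 2 higher members and sterol synthesis 6 lower and 0 higher, whereas the Slit, Robo and netrin set had 1 lower and 4 higher.

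Transcription factors of the granule lineage held the largest fall among the genes with a mean of at least 5 TPM in WT or Hom and a protein product. Otx1 (ENSMUSG00000005917; GRCm38 chromosome 11, 21994764 to 22002897, minus strand), a homeobox factor of the dorsal hindbrain and forebrain, had 16.3, 23.7, 18.98, 28.8 and 39.5 in WT 1 to 5 and 4.29, 2.61, 3.14 and 3.91 in Hom 1 to 4. The groups did not overlap, and the change was -2.55 (SE 0.19, adjusted p 1.62e-05). Its paralog Otx2, which marks GNPs of the posterior cerebellum as well as the choroid plexus, moved the other way, with 80.4, 74.9, 72.6, 68.8 and 106 in WT 1 to 5 and 121, 117, 131 and 144 in Hom 1 to 4 and a change of 0.66 (SE 0.14, adjusted p 0.0206). In that gene every Hom library lay above every WT library. With the glial and endothelial covariates the Otx2 change was 0.55 (adjusted p 0.179). Of the 36 granule lineage and cerebellar patterning factors tested, 4 were lower and 2 higher. Neurod6, a bHLH factor of differentiating neurons, had 31.02, 28.2, 37.03, 25.03 and 66 in WT 1 to 5 and 10.02, 11.1, 7.16 and 10.6 in Hom 1 to 4, a change of -1.77 (SE 0.23, adjusted p 7.54e-04). Its relative Neurod1, which granule neurons need to differentiate and survive, was far more abundant, at 816 ± 142 (SD, n = 5) TPM in WT and 553 ± 40.8 (SD, n = 4) TPM in Hom, and changed by -0.55 (SE 0.10, adjusted p 0.0116). Barhl2, a homeobox factor of the same lineage, was lower with -0.53, and En1, which sets up the midbrain and hindbrain territory, was higher by 0.63 (SE 0.11, adjusted p 0.00791). Refitting without each library in turn lost the call in 4 of 9 for Otx2.

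The list of rhombic lip and non-granule hindbrain factors, with 20 tested, gave 2 lower and 2 higher genes. Olig3, a bHLH factor of the early rhombic lip, had 3.21, 2.96, 3.4, 2.24 and 5.13 in WT 1 to 5 and 12.5, 8.29, 18.7 and 11.7 in Hom 1 to 4, and its change of 1.61 (SE 0.27, adjusted p 0.00465) was seen in both batches, with 1.42 in batch 1 and 1.83 in batch 2. Wls, which carries Wnt proteins to the cell surface and marks the interior rhombic lip, was higher with 0.58 (adjusted p 0.0261). Lhx1 (-0.45) and Msx2 (-0.84) were lower. Lhx1 was abundant, at 122 to 220 TPM in WT and 106 to 134 TPM in Hom, although it was listed as non-granule. Outside these lists the orphan nuclear receptor Nr2f2 was higher in all 4 Hom libraries (21.5 to 30.1 TPM) than in any WT library (12.7 to 17.7 TPM), with 0.76 (SE 0.11, adjusted p 0.00158), and Rxra, a partner of many nuclear receptors, was higher with 0.42 (adjusted p 0.0137). The endothelial factor Sox18 had 5.29, 5.82, 6.58, 15.2 and 16.99 in WT 1 to 5 and 19.3, 19.3, 31.2 and 28.97 in Hom 1 to 4. It was thus also higher in WT of batch 2 than of batch 1, as were the endothelial markers, and with the marker covariates its change was 0.68 (adjusted p 0.13). The part of endothelial cells in its change of 1.27 was not tested. Smarca2, a catalytic subunit of SWI/SNF remodellers, was the single called gene among 26 chromodomain helicases and SWI/SNF subunits, with 0.49 (adjusted p 0.0103). Among 358 Zfp zinc finger genes 1 was called, Zfp704 (0.40), a share under that of all genes. Leaving out 1 library at a time ended the call in 1 of 9 for Rxra, in 5 of 9 for Wls, in 8 of 9 for Lhx1 and Msx2 and in 9 of 9 for Zfp704.

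**Figure D3:**
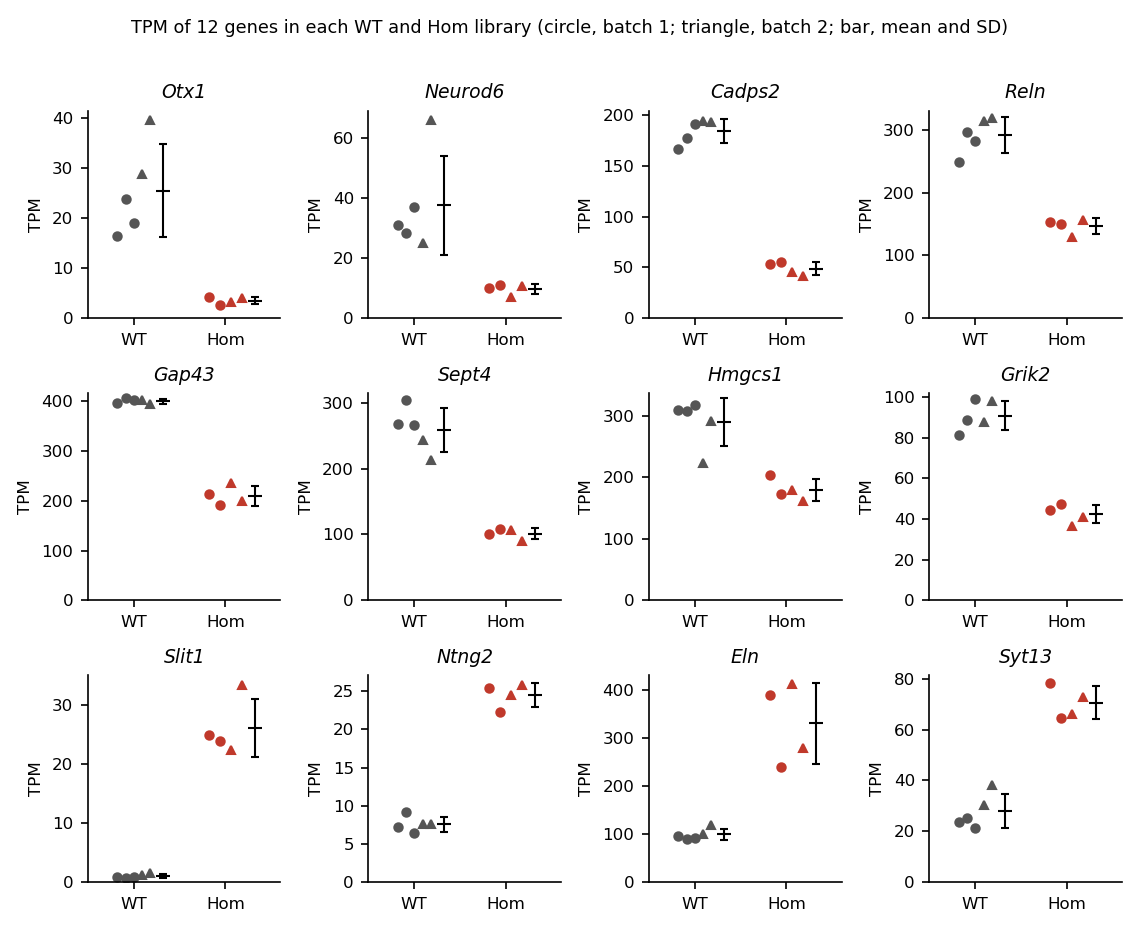
TPM of 12 genes in each WT and Hom library (circles, batch 1; triangles, batch 2), with the mean and SD of each group. Otx1, Neurod6, Cadps2, Reln, Gap43, Sept4, Hmgcs1 and Grik2 are lower in every Hom library than in any WT library, and Slit1, Ntng2, Eln and Syt13 are higher in every one.

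Secreted molecules and their machinery changed at both ends of the scale. Cadps2 (ENSMUSG00000017978; GRCm38 chromosome 6, 23262773 to 23839421, minus strand), which primes dense core vesicles for release and is needed for neurotrophin secretion by granule cells, had the lowest adjusted p of all genes. Its values were 166, 178, 191, 194 and 193 in WT 1 to 5 and 52.7, 55.6, 44.9 and 41.3 in Hom 1 to 4, so that the groups were widely apart, a change of -1.89 (SE 0.11, adjusted p 2.50e-06). Of 17 genes of dense core vesicle secretion tested, 3 were lower and 0 higher. The other lower genes were Scg2, a secretogranin stored in these vesicles, with -0.83 (adjusted p 7.47e-04), and Pcsk2, a protease that matures prohormones, with -0.68 (adjusted p 0.00158). Reln (ENSMUSG00000042453; GRCm38 chromosome 5, 21884454 to 22344702, minus strand), the secreted glycoprotein that positions Purkinje cells, had 249, 297, 282, 314 and 319 in WT 1 to 5 and 152, 149.8, 128 and 156 in Hom 1 to 4, a change of -0.99 (SE 0.12, adjusted p 6.26e-04). It was the single called gene of the 10 tested in the Reelin pathway. The promoters of these genes are shown because both were lower in every Hom library and both contain the palindrome CACGTG, an E-box, printed in capitals. The windows run from 250 bases before to 50 bases after the RefSeq start (GRCm38.p6), 5′ to 3′ on the strand of the gene.
Cadps2, chr6:23839372-23839671, minus strand: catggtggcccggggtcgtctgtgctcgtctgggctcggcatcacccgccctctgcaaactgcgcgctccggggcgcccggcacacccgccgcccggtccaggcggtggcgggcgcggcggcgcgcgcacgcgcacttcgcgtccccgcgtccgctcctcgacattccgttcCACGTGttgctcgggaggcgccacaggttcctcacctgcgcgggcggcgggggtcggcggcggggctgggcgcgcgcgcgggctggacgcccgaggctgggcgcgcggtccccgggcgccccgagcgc
Reln, chr5:22344656-22344955, minus strand: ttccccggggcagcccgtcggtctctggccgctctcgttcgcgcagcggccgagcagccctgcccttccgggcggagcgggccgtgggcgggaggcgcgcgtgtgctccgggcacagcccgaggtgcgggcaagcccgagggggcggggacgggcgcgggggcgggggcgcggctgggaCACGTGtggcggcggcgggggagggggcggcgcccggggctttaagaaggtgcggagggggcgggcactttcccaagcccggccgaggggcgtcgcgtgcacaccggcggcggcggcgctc
The E-box begins 78 bases before the start of Cadps2 and 71 before that of Reln. It was found in the windows of 14 of the 179 lower genes with a promoter in the table (7.82%), 28 of the 156 higher genes (17.9%) and 1297 of all 11524 tested genes with one (11.3%). A match of these letters is a description and not a site of binding.

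Guidance molecules had called members in both directions. Slits repel axons and migrating cells through Robo receptors, netrins attract or repel through Dcc and Unc5, and Ephs, ephrins and semaphorins act mostly as repellents. Slit1 (ENSMUSG00000025020; GRCm38 chromosome 19, 41600257 to 41743665, minus strand) had the largest rise of all called genes, with 0.98, 0.79, 0.88, 1.33 and 1.55 in WT 1 to 5 and 24.9, 23.8, 22.3 and 33.3 in Hom 1 to 4. The gene was close to absent from every WT library and present in every Hom library, a change of 3.64 (SE 0.29, adjusted p 2.29e-05), with 3.75 in batch 1 and 3.54 in batch 2. Of 18 Slits, Robos, netrins and receptors tested, 4 were higher and 1 lower. The netrin-G protein Ntng2, a surface ligand anchored to the membrane, rose from 7.62 ± 0.98 (SD, n = 5) TPM in WT to 24.5 ± 1.56 (SD, n = 4) TPM in Hom, with 1.55 (SE 0.14, adjusted p 5.04e-05). Robo3, which lets commissural axons cross the midline, had 0.59, 1, 0.56, 0.88 and 1.82 in WT 1 to 5 and 2.7, 2.33, 4.04 and 6.73 in Hom 1 to 4, with 1.22 (adjusted p 0.0245). Ntn1, the classical netrin, was higher by a smaller amount, 0.42 (adjusted p 0.0171). Unc5c, a netrin receptor that keeps granule cells within the cerebellum, was the lower gene, with 91.3, 106, 105, 136 and 129.8 in WT 1 to 5 and 65.7, 93.4, 56.5 and 55.8 in Hom 1 to 4 and a change of -0.75 (SE 0.16, adjusted p 0.0206). In batch 1 alone, WT 1 (91.3 TPM) and Hom 2 (93.4 TPM) overlapped. Draxin, a secreted repellent that binds netrin, was named after its values were seen, with 125, 133, 137, 108 and 115 in WT 1 to 5 and 237, 158, 279.7 and 279 in Hom 1 to 4 and a change of 0.90 (SE 0.18, adjusted p 0.0168). Among fits without 1 library, the call was lost in 2 of 9 for Draxin and Ntn1 and in 5 of 9 for Robo3 and Unc5c.

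Of 21 Eph receptors and ephrins, 4 were lower, which were Epha3 (-1.19), Epha6 (-0.71), Efnb2 (-0.57) and Epha7 (-0.49), and 2 were higher, Epha8 (0.79) and Ephb6 (0.51). Epha3 had 8.44, 9.75, 9.87, 9.54 and 11.2 in WT 1 to 5 and 3.88, 4.34, 3.04 and 3.49 in Hom 1 to 4, the receptor with the lowest adjusted p of the family (0.00145). Epha8 moved oppositely, from 5.78 to 8.69 TPM in WT to 11.6 to 14.3 TPM in Hom. Of 29 semaphorins, plexins and neuropilins, the secreted class 3 members Sema3d (-1.02) and Sema3a (-0.84) were lower and 0 were higher. Without 1 library at a time the call was missed in 5 of 9 for Ephb6, in 7 of 9 for Epha7 and Sema3a and in 8 of 9 for Epha6 and Sema3d.

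Synaptic vesicle release had the most lower genes of the 72 lists and families, with 9 lower and 2 higher of 47 tested, against 2.68% of all genes. These proteins dock, prime and fuse the vesicles of the presynaptic terminal. Syt1, the calcium sensor of fast release, had 28.2, 28.6, 30.1, 31.4 and 31 in WT 1 to 5 and 18.3, 17.8, 18.5 and 20.9 in Hom 1 to 4, with a change of -0.64 (SE 0.08, adjusted p 7.69e-04). Syp, a major membrane protein of the vesicle, fell from 195 ± 17.5 (SD, n = 5) TPM to 135 ± 20.4 (SD, n = 4) TPM, with -0.55 (SE 0.07, adjusted p 7.14e-04). Slc17a7, the vesicular glutamate transporter of granule cells, had 20.7, 22.1, 23.3, 25.98 and 23.8 in WT 1 to 5 and 12.1, 8.76, 16.2 and 23.2 in Hom 1 to 4. Hom 4 lay above WT 1 and WT 2 of the other batch in that gene, and the change was -0.71 (SE 0.17, adjusted p 0.0439). Also lower were Ppfia2 (-0.72), Unc13c (-0.70), Rims1 (-0.45), Cplx1 (-0.40) and Amph (-0.27), which scaffold, prime or clamp the release site or recycle its membrane. The higher genes were the calcium sensor Doc2b, with 1.12 (adjusted p 0.0274), and Syn2, a synapsin that tethers vesicles, with 0.26 (adjusted p 0.0464). Syt13, a synaptotagmin of a separate list that lacks the calcium-binding residues of Syt1, rose instead, with 23.9, 25.5, 21.5, 30.4 and 38.4 in WT 1 to 5 and 78.4, 64.6, 66.2 and 72.9 in Hom 1 to 4 and a change of 1.31 (SE 0.13, adjusted p 1.18e-04). Lower synaptotagmins were Syt1 and Syt9 (-0.34). Dropping single libraries ended the call in 3 of 9 for Syt9, in 5 of 9 for Cplx1, in 6 of 9 for Doc2b, in 7 of 9 for Slc17a7 and in 8 of 9 for Rims1, Syn2 and Unc13c.

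Partners across the synapse were less uniform. Cbln1, which granule cells secrete to bridge their terminals to Purkinje cells, was lower, with 166, 167, 158, 186 and 218 in WT 1 to 5 and 133, 114, 146 and 130.4 in Hom 1 to 4 and a change of -0.47 (SE 0.06, adjusted p 0.00107). The related secreted protein C1ql1 was higher by 0.42 (SE 0.07, adjusted p 0.00638). Of 21 cerebellins, neurexins and partners, 2 were lower and 1 higher. Adgrb3, a receptor that binds C1q-like proteins, was lower from 36.4 to 44.9 TPM in WT to 18.04 to 26.02 TPM in Hom, with -0.88 (SE 0.09, adjusted p 1.26e-04). Of 23 postsynaptic scaffolds 1 was called, Dlg2, a PSD-95 relative, with -0.63 (adjusted p 6.26e-04). Newly named after the values were seen, Nptxr, a receptor for pentraxins that gather AMPA receptors, was lower with -0.85 (SE 0.11, adjusted p 6.26e-04).

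Glutamate receptors divided by subunit. AMPA and kainate receptors are fast glutamate-gated channels, NMDA receptors are slower and pass calcium, and metabotropic receptors signal through G proteins. Grik2, a kainate subunit, had 81.6, 88.6, 98.9, 87.6 and 97.97 in WT 1 to 5 and 44.4, 47.3, 36.8 and 40.96 in Hom 1 to 4, with a change of -1.08 (SE 0.10, adjusted p 5.06e-05), while its relative Grik3 was higher, with 6.62, 8.74, 6.98, 11.3 and 10.1 in WT 1 to 5 and 11.6, 18.5, 16.6 and 16.1 in Hom 1 to 4 and a change of 0.75 (SE 0.15, adjusted p 0.0197). The AMPA subunits Gria4 and Gria2 were lower with -0.65 (SE 0.08, adjusted p 6.57e-04) and -0.57 (SE 0.12, adjusted p 0.0211). Grin2c, the NMDA subunit that granule neurons take up as they mature, had 0.62, 0.7, 0.48, 0.32 and 0.74 in WT 1 to 5 and 3.98, 2.21, 3.38 and 4.89 in Hom 1 to 4 and was higher with 1.51 (SE 0.25, adjusted p 0.00465), although from a low level. Altogether 3 of 18 ionotropic subunits were lower and 2 higher. Of 6 metabotropic receptors tested, 1 was lower and all 6 changes were below 0. Of 14 GABA and glycine receptor subunits, 0 were lower and 2 higher, among them Gabbr2 (0.50), part of the receptor that couples GABA to G proteins. Among acetylcholine and serotonin receptors, Chrnb4, a nicotinic subunit, was higher with 1.11 (adjusted p 0.0136) and Chrm3, a muscarinic receptor, lower with -0.55 (adjusted p 0.0329). Of the genes named here, the call was lost on leaving out a library in 2 of 9 for Chrnb4 and Grik3, in 4 of 9 for Gria2 and in 7 of 9 for Chrm3 and Gabbr2.

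**Figure D4:**
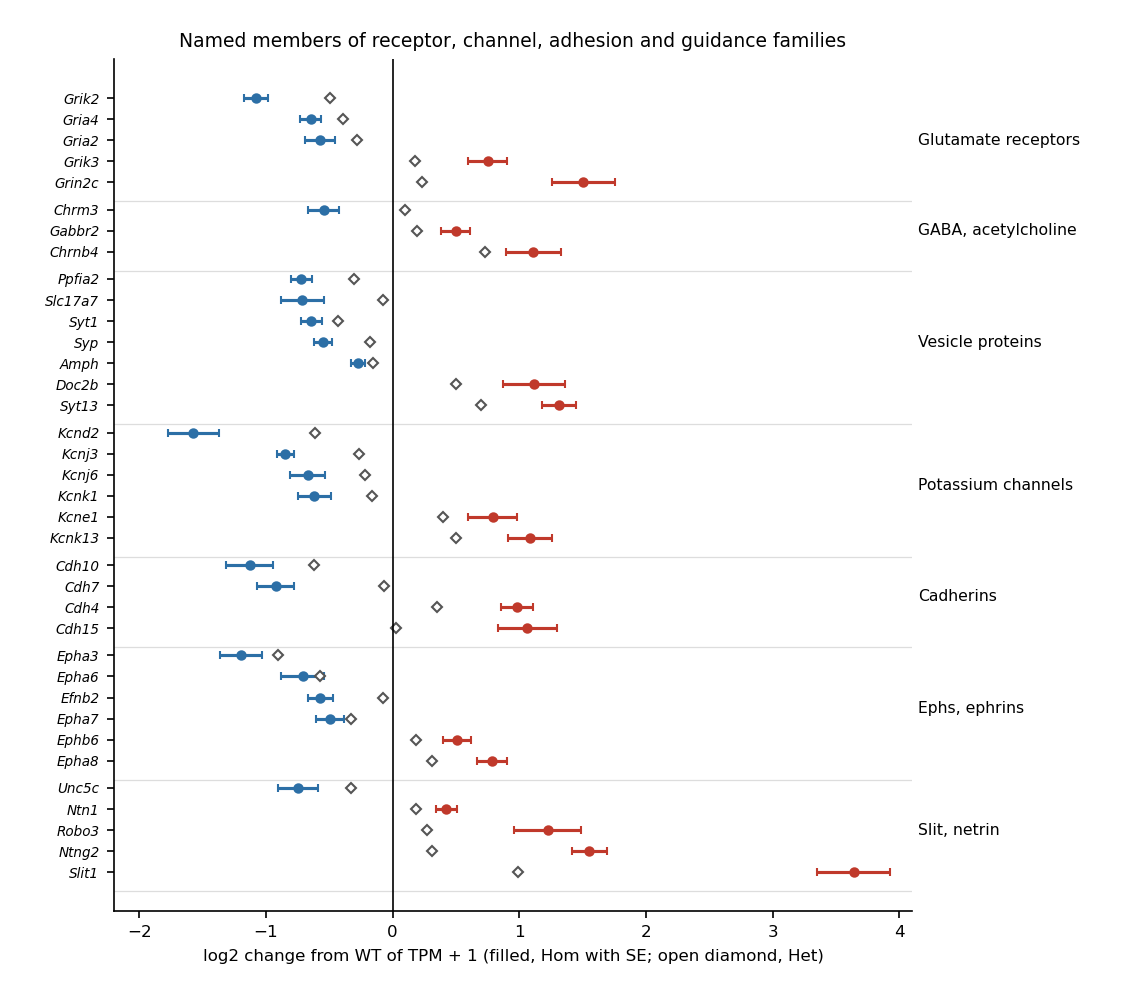
Log2 changes from WT of named called members of 7 families, in Hom (filled, with SE; blue lower, red higher) and in Het (open diamonds, fitted against the same WT libraries). Each family holds members on both sides of 0, as for Grik2 (-1.08) and Grik3 (0.75).

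Among ion channels, potassium channels had the most called genes. Kcnd2, which carries the A-type potassium current of granule cells, had 17.5, 20.2, 20.7, 24.3 and 23.8 in WT 1 to 5 and 4.55, 9.44, 5.28 and 7.55 in Hom 1 to 4, a change of -1.57 (SE 0.20, adjusted p 7.47e-04). The inward rectifiers that G proteins open, Kcnj3 and Kcnj6, were lower with -0.85 (SE 0.07, adjusted p 3.65e-05) and -0.67 (SE 0.14, adjusted p 0.0189). Kcnk1 (-0.62) was also lower. Against 5 lower of 58 potassium channel genes, 2 were higher, the leak channel Kcnk13 with 1.09 (adjusted p 0.00384) and the accessory subunit Kcne1 with 0.79 (adjusted p 0.0496). Of 22 calcium channel subunits the auxiliary Cacna2d1 was lower (-0.75) and the low-voltage channel Cacna1i higher (0.78). The intracellular chloride channel family split as well. Clic6 had 2.82, 1.66, 1.61, 1.86 and 1.45 in WT 1 to 5 and 8.96, 9.7, 9.61 and 12 in Hom 1 to 4 and rose by 1.95 (SE 0.16, adjusted p 2.36e-05), while Clic1 fell from 227 to 266 TPM to 170.2 to 202 TPM, with -0.39 (SE 0.06, adjusted p 0.00483). Clic6 is also a choroid plexus marker. The 8 markers of that tissue summed to 133 to 663 TPM in WT and 170 to 259 TPM in Hom, and its defining gene Ttr was not called, so that Clic6 and Otx2 were the called genes of the list. Sodium and calcium exchangers moved apart, Slc8a1 lower with -0.41 (adjusted p 0.0198) and Slc8a2 higher with 0.43 (adjusted p 0.00711). Nkain3, a protein that binds the sodium pump, was lower, with 7.95, 8.66, 10.2, 10.3 and 10.2 in WT 1 to 5 and 4.49, 4.34, 3.95 and 4.76 in Hom 1 to 4 and -0.96 (SE 0.12, adjusted p 7.14e-04). Solute carriers as a family gave 6 lower and 4 higher of 273 genes, 3.66%, near the share of all genes. In fits that each omitted a library, calls were lost in 2 of 9 for Kcnj6, in 4 of 9 for Kcnk1, Otx2 and Slc8a1, in 7 of 9 for Cacna1i and in 8 of 9 for Kcne1.

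Adhesion molecules of the immunoglobulin and leucine-rich kinds gave 7 lower and 5 higher of 45 tested. Alcam, which holds growing axons together, had 55.7, 62.9, 66.7, 54.1 and 55.6 in WT 1 to 5 and 23.6, 28.7, 19.8 and 34.2 in Hom 1 to 4 and changed by -1.13 (SE 0.13, adjusted p 3.27e-04). Slitrk5, a leucine-rich synaptic organizer, fell from 24.5 to 29.3 TPM in WT to 14.2 to 15.4 TPM in Hom, with -0.81 (SE 0.07, adjusted p 4.83e-05). Nrcam, of the L1 family, was lower with -0.51 (SE 0.07, adjusted p 0.00185). The remaining lower members were Cntn6 (-0.82), Flrt3 (-0.70), Igsf3 (-0.42) and Cadm3 (-0.34). Sdk2, a sidekick protein that matches synaptic partners in the retina, rose most in this group, with 1.73, 1.64, 1.42, 3.02 and 1.94 in WT 1 to 5 and 8.06, 7.96, 8.49 and 11.4 in Hom 1 to 4 and a change of 1.75 (SE 0.16, adjusted p 5.06e-05). Tenm4 (0.82), Nectin1 (0.50), Ntm (0.46) and Cadm1 (0.37) were the others that rose. Of 14 classical cadherins tested, 2 were lower and 2 higher. Cdh10 had 20.5, 20.02, 20.5, 21.4 and 23.8 in WT 1 to 5 and 7.49, 11.3, 9 and 9.28 in Hom 1 to 4 and Cdh7 had 13.8, 13.5, 14.3, 12.3 and 15.9 in WT 1 to 5 and 8.43, 6.73, 4.67 and 7.97 in Hom 1 to 4, with changes of -1.13 and -0.92. Cdh4 had 14.5, 19.2, 13.5, 25.4 and 20.9 in WT 1 to 5 and 37.7, 38.7, 36.04 and 38.3 in Hom 1 to 4 and rose by 0.98 (SE 0.13, adjusted p 8.07e-04), and Cdh15, best known from muscle, rose from 1.75 to 2.74 TPM in WT to 3.38 to 8.64 TPM in Hom. Neither the 23 clustered nor the 19 non-clustered protocadherins, nor the 23 integrins, had a called member by limma. At an unadjusted p under 0.05 these families held 0, 5 and 3 genes. In fits without 1 library the adjusted p rose above the threshold in 1 of 9 for Nectin1, in 2 of 9 for Tenm4, in 4 of 9 for Cadm1, in 5 of 9 for Cdh15, in 6 of 9 for Igsf3, in 7 of 9 for Cntn6, Flrt3 and Ntm and in 9 of 9 for Cadm3.

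Genes for the cytoskeleton of growing neurites were called lower more than higher. Growth cone and neurite proteins gave 6 lower and 1 higher of 29 tested, and 26 of the 29 changes were below 0. Gap43, a membrane protein of the growth cone and a substrate of protein kinase C, had 396, 406, 404, 402 and 395 in WT 1 to 5 and 213, 191, 236 and 199 in Hom 1 to 4. All Hom libraries lay far below the narrow range of WT, a change of -0.94 (SE 0.06, adjusted p 6.66e-06). Gprin3, which binds G proteins at the growth cone, changed by -1.19 (SE 0.11, adjusted p 5.06e-05), Stmn2, which regulates microtubule turnover, by -0.55 (SE 0.05, adjusted p 1.11e-04) and Basp1, a relative of Gap43 in function, by -0.29 (SE 0.06, adjusted p 0.0249). The neurofilament subunits Nefl and Nefm were lower with -0.98 (SE 0.09, adjusted p 6.98e-05) and -0.64 (SE 0.15, adjusted p 0.035). Dpysl4, a collapsin response mediator, was the higher gene, with 0.61 (adjusted p 0.00497). Of 12 tubulins, 4 were lower and 0 higher. The most abundant was Tuba1a, at 6060.01 to 8782 TPM in WT and 5256 to 7206 TPM in Hom, with -0.28 (SE 0.07, adjusted p 0.0457). Tubb3, the neuronal beta-tubulin, had 593, 563, 548, 751 and 649 in WT 1 to 5 and 447, 402, 623 and 496 in Hom 1 to 4, and Hom 3 lay above 3 WT libraries of the other batch. Tubb2a (-0.55) and Tubb2b (-0.35) are near-identical neighbours whose short reads may have been split between them. Sept4, a septin that associates with synaptic membranes, was the single called gene of 11 septins. It had 267, 304, 267, 244 and 213 in WT 1 to 5 and 100, 108, 106 and 90.1 in Hom 1 to 4, with -1.32 (SE 0.09, adjusted p 1.01e-05). Gpm6a, a neurite membrane glycoprotein named after its values were seen, was one of the most abundant lower genes, with 637, 584, 747, 607 and 517 in WT 1 to 5 and 304, 378, 309 and 298 in Hom 1 to 4 and a change of -0.92 (SE 0.09, adjusted p 1.09e-04). None of the 35 kinesins was called by limma, with 2 at an unadjusted p under 0.05. The call did not survive every omission of a library, being lost in 1 of 9 for Tubb2b, in 5 of 9 for Basp1 and Nefm and in 9 of 9 for Tuba1a.

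Sterol synthesis and uptake held 6 lower and 0 higher of 25 genes tested. The changes of 23 of the 25 were below 0, with a median of -0.32, where 44.5% of all genes were below 0. The pathway builds cholesterol from acetyl-CoA through mevalonate, and its enzymes are known to be switched on together by SREBP factors when cell sterol is low. Hmgcs1, which makes HMG-CoA, had 309, 308, 317, 223 and 292 in WT 1 to 5 and 203, 172, 179 and 162 in Hom 1 to 4 and changed by -0.66 (SE 0.09, adjusted p 8.24e-04). Msmo1, an oxidase that demethylates sterols, had 96.6, 85.2, 94.6, 71.2 and 117 in WT 1 to 5 and 66.1, 47.6, 60.2 and 56.1 in Hom 1 to 4. Fdps, which makes farnesyl pyrophosphate, was lower with -0.44 (SE 0.08, adjusted p 0.0115). Insig1, which retains SREBP when sterol is plentiful, had 146, 151, 153, 188 and 286 in WT 1 to 5 and 113, 124, 93.6 and 90.2 in Hom 1 to 4, with -0.78 (SE 0.19, adjusted p 0.0497). The level of WT 5 was the highest in that gene. Of 15 genes of fatty acid synthesis, 0 were called by limma and 3 had an unadjusted p under 0.05, with a median change of 0.03. Omitting libraries singly ended the call in 6 of 9 for Msmo1 and in 9 of 9 for Insig1.

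The promoters of 3 lower sterol genes are shown because members of the pathway moved together. The letters CCAAT, on either strand (ATTGG), are in capitals.
Hmgcs1, chr13:119690101-119690400, plus strand: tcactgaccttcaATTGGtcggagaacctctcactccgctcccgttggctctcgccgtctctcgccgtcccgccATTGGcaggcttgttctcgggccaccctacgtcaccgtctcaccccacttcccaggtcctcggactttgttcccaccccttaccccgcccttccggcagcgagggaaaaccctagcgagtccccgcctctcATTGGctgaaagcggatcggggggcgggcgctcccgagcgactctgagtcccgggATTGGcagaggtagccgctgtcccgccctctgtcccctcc
Msmo1, chr8:64733529-64733828, minus strand: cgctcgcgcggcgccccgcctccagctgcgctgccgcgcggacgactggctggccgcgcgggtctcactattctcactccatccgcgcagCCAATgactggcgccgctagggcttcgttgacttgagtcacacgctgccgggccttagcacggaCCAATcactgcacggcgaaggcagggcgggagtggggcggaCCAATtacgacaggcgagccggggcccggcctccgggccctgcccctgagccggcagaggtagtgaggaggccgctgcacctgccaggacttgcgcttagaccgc
Insig1, chr5:28071162-28071461, plus strand: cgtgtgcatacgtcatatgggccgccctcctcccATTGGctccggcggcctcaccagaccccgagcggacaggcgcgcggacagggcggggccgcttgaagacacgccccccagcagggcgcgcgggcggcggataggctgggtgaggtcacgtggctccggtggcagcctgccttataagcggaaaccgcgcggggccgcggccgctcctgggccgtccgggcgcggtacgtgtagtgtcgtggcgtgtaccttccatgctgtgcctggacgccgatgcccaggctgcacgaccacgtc
There are 4 such matches in the window of Hmgcs1, 3 in that of Msmo1 and 1 in that of Insig1. Of the 25 sterol genes tested, 17 had a promoter window, and 16 of these (94.1%) held CCAAT on either strand in at least 1 window. The shares were 36.9% for lower genes, 39.1% for higher genes and 42.8% for all. CCAAT was 1 of several motifs counted. GGGCGG was also held by 16 of the 17 (94.1%), against 60.3% for lower genes, 67.9% for higher genes and 67.1% for all.

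**Figure D5:**
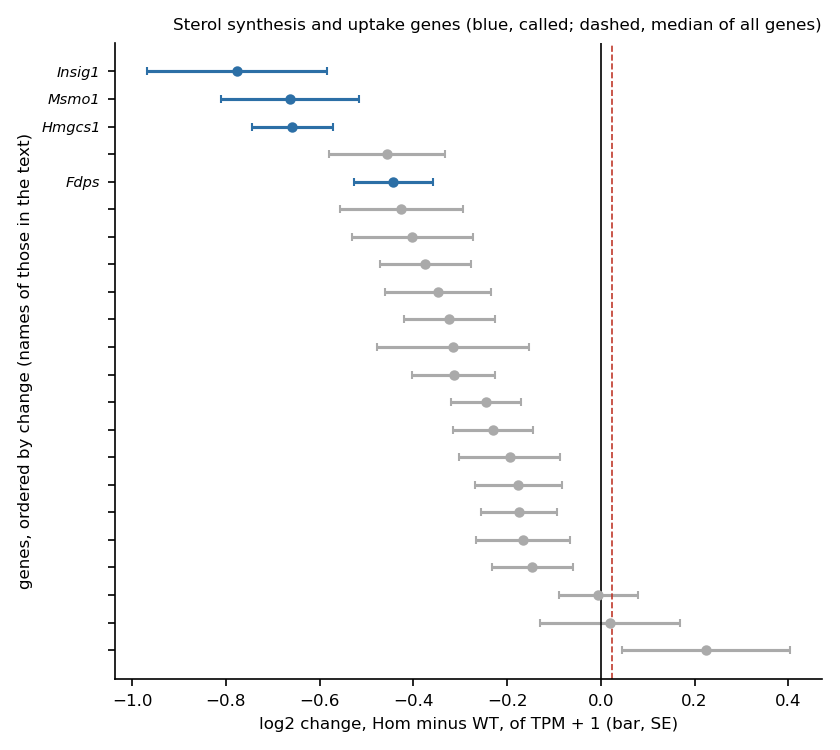
Log2 change, Hom minus WT, with its SE for 22 of the 25 sterol synthesis and uptake genes tested (blue, called by limma; grey, not called), beside the median of all genes (dashed line, 0.02). Of those plotted, 20 lie below 0, and Insig1 (-0.78), Msmo1 (-0.66), Hmgcs1 (-0.66) and Fdps (-0.44) are called.

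Matrix genes were mostly higher where they were called. Eln (ENSMUSG00000029675; GRCm38 chromosome 5, 134702593 to 134747323, minus strand), the elastin precursor, had 97.1, 89.2, 93.01, 99.7 and 119 in WT 1 to 5 and 389, 239.8, 412 and 278 in Hom 1 to 4, and its change of 1.68 (SE 0.17, adjusted p 1.04e-04) was 1.70 in batch 1 and 1.63 in batch 2. Loxl1, which crosslinks elastin, had 8.3, 9.35, 8.27, 11.1 and 9.67 in WT 1 to 5 and 21.6, 15.6, 28.2 and 31.1 in Hom 1 to 4 and rose by 1.2 (SE 0.12, adjusted p 9.23e-05). They were the called genes among 33 elastic fibre and matrix glycoproteins, whose median change was 0.28. Of 33 collagens, Col28a1 (0.97), Col27a1 (0.88) and Col6a3 (0.72) were higher and Col9a1 was lower with 8.1, 7.26, 7.2, 7.25 and 7.53 in WT 1 to 5 and 3.05, 3.83, 3.18 and 4.74 in Hom 1 to 4 and a change of -0.87 (SE 0.14, adjusted p 0.00351). Adamts14, a protease that trims procollagen, rose by 1.13 (SE 0.15, adjusted p 7.67e-04), and Antxr1, a receptor that binds collagen, had 7.81, 10.5, 7.96, 10.4 and 7.03 in WT 1 to 5 and 20.8, 22.1, 21.1 and 28.4 in Hom 1 to 4 with 1.30 (SE 0.13, adjusted p 1.14e-04). The 8 meningeal markers, which include fibrillar collagens, summed to 149 to 399 TPM in WT and 195 to 515 TPM in Hom with 0 of 8 called by limma, and their part in these changes was not tested. Of 37 heparan and chondroitin sulphate genes, 3 were lower and 2 higher, and 20 of the changes were above 0 (median 0.02). The lower genes all encode enzymes that modify heparan sulphate. Ndst3, which begins its sulphation, had 85.5, 102, 98.1, 116 and 114 in WT 1 to 5 and 42.4, 52.7, 30.7 and 25.96 in Hom 1 to 4 and changed by -1.44 (SE 0.18, adjusted p 6.00e-04). Hs3st5 and Hs6st3, which add sulphate at later steps, were lower with -1.22 (SE 0.12, adjusted p 1.16e-04) and -0.62 (SE 0.13, adjusted p 0.0225). The higher genes were Gpc1, a core protein that carries these chains, and Chst15, a chondroitin sulphotransferase, with 0.35 (SE 0.08, adjusted p 0.0445) and 0.47 (SE 0.09, adjusted p 0.0169). When libraries were left out singly, the call was lost in 4 of 9 for Hs6st3, in 6 of 9 for Col6a3 and in 8 of 9 for Gpc1.

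Among genes of growth signals and the cell cycle, 1 of 30 for replication and mitosis (3.33%), 1 of 16 of the Hedgehog pathway (6.25%), 1 of 15 for cell cycle exit (6.67%), 3 of 31 of the Wnt pathway (9.68%) and 3 of 27 of the FGF family (11.1%) were called, beside 2.68% of all genes. Ccnd1, the D cyclin that Hedgehog signalling maintains in GNPs, had 81.95, 91.9, 79.7, 104 and 114 in WT 1 to 5 and 155, 151, 166 and 192 in Hom 1 to 4, a change of 0.80 (SE 0.08, adjusted p 1.11e-04), and all Hom libraries lay above all WT libraries. Gas1, a Hedgehog co-receptor, was the single called gene of 16 in that pathway, with 0.34 (adjusted p 0.0156), although 14 of the 16 changes were above 0 (median 0.18). Mcm6, a replication helicase subunit, was the called gene of 30 replication and mitosis genes, with 0.39 (adjusted p 0.0437). Of 31 Wnt pathway genes 0 were lower and 3 higher. Wnt5a had 11.8, 13.7, 11.1, 14.7 and 12.2 in WT 1 to 5 and 23.1, 24.1, 20.1 and 23.1 in Hom 1 to 4 and rose by 0.78 (SE 0.10, adjusted p 6.26e-04), and Wnt4 rose from 1.44 to 2.43 TPM to 3.79 to 5.72 TPM, with 0.89 (SE 0.14, adjusted p 0.0038). The third, Lef1, had 0.32, 0.68, 0.71, 1.65 and 2.7 in WT 1 to 5 and 3.54, 5.43, 3.61 and 5.89 in Hom 1 to 4. It was higher in WT of batch 2 than of batch 1, as endothelial markers were, and its change with the marker covariates was 0.71 (adjusted p 0.218). Fgfr4 rose by 1.44 (SE 0.14, adjusted p 6.98e-05), with 6.18, 5.04, 5.17, 6.63 and 8.27 in WT 1 to 5 and 18.5, 14.2, 21.6 and 23.1 in Hom 1 to 4, while the ligands Fgf5 (-0.72) and Fgf13 (-0.33) were lower, Fgf13 being an intracellular member of the family. Ntrk3, the receptor of neurotrophin-3, was higher in every Hom library (30.9 to 49.9 TPM) than in any WT library (18.6 to 22.2 TPM), with 0.84 (SE 0.14, adjusted p 0.00518). In the BMP and TGF-beta list, Bmp5 fell from 9.01 ± 1.91 (SD, n = 5) TPM to 2.22 ± 0.705 (SD, n = 4) TPM, with -1.63 (SE 0.19, adjusted p 3.38e-04), and Fstl5, a follistatin-like protein, was lower with -1.22 (SE 0.21, adjusted p 0.00634). Chrdl2, which binds and blocks BMPs and is in no list, had 4.29, 5.56, 5.31, 7.11 and 7.08 in WT 1 to 5 and 15.9, 17.2, 21.7 and 19.3 in Hom 1 to 4 and rose by 1.47 (SE 0.13, adjusted p 5.30e-05). The ligands Pdgfa and Pdgfc, named after their values were seen, moved apart, 0.73 and -1.03. In the p53 and apoptosis list Hrk, a BH3-only activator of cell death, was higher with 2.03, 1.81, 1.54, 1.32 and 1.36 in WT 1 to 5 and 4.04, 3.97, 3.72 and 4.95 in Hom 1 to 4 and 0.99 (SE 0.18, adjusted p 0.00914). No Notch gene of 26 was called by limma, and 4 had an unadjusted p under 0.05. Of 20 immediate early genes 18 were below 0 (median -0.69), of which Jund was called (-0.67) and Fos was not, with 157, 165, 186, 55.4 and 666 in WT 1 to 5 and 35.6, 66.7, 46.3 and 60.2 in Hom 1 to 4 and -1.80 (SE 0.55, adjusted p 0.12). Removal of 1 library ended the call in 2 of 9 for Gas1, in 6 of 9 for Fgf13, in 7 of 9 for Jund and Lef1, in 8 of 9 for Mcm6 and in 9 of 9 for Fgf5.

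Genes in none of the lists included several with small adjusted p. These were chosen after their values were seen. Optn, an autophagy receptor, had 47.9, 49.9, 50.2, 53.9 and 54.9 in WT 1 to 5 and 24.1, 26.5, 30.4 and 26.1 in Hom 1 to 4 and changed by -0.93 (SE 0.07, adjusted p 1.89e-05). Prmt8, an arginine methyltransferase of neurons anchored at the membrane, had 17.3, 19.5, 16.4, 17.3 and 20.7 in WT 1 to 5 and 38.9, 39.4, 40.7 and 38.1 in Hom 1 to 4, a change of 1.06 (SE 0.09, adjusted p 4.80e-05). Olfm1, a secreted olfactomedin of neurons, rose by 0.87 (SE 0.08, adjusted p 6.98e-05), and Nos1, neuronal nitric oxide synthase, by 1.13 (SE 0.12, adjusted p 1.51e-04). The transcription factors Myt1l and St18, close relatives, moved apart, with 17.6, 21.8, 19.4, 17.2 and 19.3 in WT 1 to 5 and 41.1, 36.6, 42.5 and 32.2 in Hom 1 to 4 for the first and 176, 216, 203, 204 and 204 in WT 1 to 5 and 114, 134, 99.9 and 88.3 in Hom 1 to 4 for the second, changes of 0.96 and -0.87. Nova1, a regulator of neuronal splicing, was lower with -0.64 (SE 0.08, adjusted p 4.78e-04), and Ptn, the growth factor pleiotrophin, fell from 393 to 622 TPM to 301 to 347 TPM. Among the 15 largest falls were also the uncharacterized transcripts Gm16169 and A730046J19Rik and the gene Dmrta1, a DM-domain factor, with 5.31, 7.87, 7.43, 7.16 and 11.8 in WT 1 to 5 and 0.89, 2.24, 1.34 and 2.56 in Hom 1 to 4. Pcp4, an abundant gene of Purkinje cells, had 85.8, 93.98, 76.2, 26.6 and 22.8 in WT 1 to 5 and 15.1, 15.3, 12.3 and 14.3 in Hom 1 to 4. Its change was -1.73 (SE 0.31, adjusted p 0.00914 by limma), with -2.41 in batch 1 and -0.84 in batch 2. With the marker covariates it was -0.79 (adjusted p 0.0939). Pcp4 is itself a member of the Purkinje cell list and a large part of its sum, so that sum is no separate measure. The part of Purkinje cells in the change of Pcp4 was not tested.

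Of 32 myosins, 2 were higher, Myl1 and Myh3, both best known from skeletal muscle and both at low levels, and 1 was lower, the non-muscle myosin Myh14 (-0.68). Myl1 had 2.61, 1.69, 2.03, 1.39 and 1.46 in WT 1 to 5 and 3.85, 5.45, 5.74 and 10.1 in Hom 1 to 4 and Myh3 had 1.5, 1.06, 1.26, 0.56 and 0.88 in WT 1 to 5 and 3.14, 3.67, 3.3 and 7.24 in Hom 1 to 4, with changes of 1.30 and 1.33. Other genes known from muscle, Acta1, Mylpf, Flnc and Casq1, belong to no fixed list, were picked after their values were seen and rose by 1.26, 1.14, 0.84 and 0.72. Hom 4 was the highest library in the 6 genes that rose, although every other Hom library lay above every WT library of its batch. Sycp1 and Trmt9b were likewise named after their values were seen. Sycp1, a protein of the meiotic synaptonemal complex, had 0, 0.07, 0.2, 0 and 0.02 in WT 1 to 5 and 1.62, 4.4, 2.98 and 2.35 in Hom 1 to 4. In Het libraries it had 4.36, 1.55, 1.4, 4.43 and 3.03 TPM, so that both Het and Hom stood above WT. The enzyme gene Trmt9b showed the same order, with 4.75, 4.48, 4.18, 3.94 and 4.53 in WT 1 to 5 and 10.5, 7.17, 7.39 and 9.32 in Hom 1 to 4 and 10, 8.43, 9.05, 8.61 and 10.8 in Het 1 to 5. Changes of Sycp1 and Trmt9b from the same WT libraries were 1.82 and 0.95 in Het beside 1.80 and 0.83 in Hom. Het and Hom mice share both Cre and the loss of at least 1 copy of Chd7, and this design cannot tell these apart. Slit1, Otx1, Cadps2 and Eln, picked for their large changes in Hom, had smaller changes in Het, 0.99, -0.17, -0.52 and 0.70. Such a pick favours smaller values in Het. Other named genes differed less between the groups, such as C1ql1 (0.42 in Het and in Hom) and Epha3 (-0.90 in Het, -1.19 in Hom). By limma, the Het changes of C1ql1, Epha3, Cadps2 and Eln from WT were not called (adjusted p 0.107, 0.134, 0.161 and 0.284). In the same limma model Hom libraries differed from Het libraries by -2.38 (adjusted p 5.14e-05) for Otx1 and -1.37 (adjusted p 5.14e-05) for Cadps2. The difference was 2.65 (adjusted p 0.00101) for Slit1 and 0.98 (adjusted p 0.0226) for Eln. For Optn, whose change in Het from WT was -0.04, it was -0.89 (adjusted p 5.14e-05). Sycp1 and Trmt9b differed between Hom and Het by -0.02 (adjusted p 0.997) and -0.12 (adjusted p 0.997). With each library left out in turn, calls were lost in 7 of 9 for Flnc and Myh14 and in 8 of 9 for Casq1.

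Called genes were also placed along the genome, and those named here were chosen for their position. Within 100 kb of each other lay 36 pairs of called genes, of which 17 were both lower, 17 both higher and 2 opposite. The opposite pairs were Coro2a (lower) beside Gabbr2 (higher) and Pdgfa (higher) beside Prkar1b (lower). A run of 3 neighbouring genes counts as more than 1 pair. The same share among all neighbouring genes tested was not computed, so these counts have no background. In 9 pairs, which all moved the same way, the genes overlapped, so reads of one could be counted for the other. Reln and Gm16111, Ntng2 and 6530402F18Rik, Cbln1 and Gm2694, and Nefl and Nefm are such pairs. Without overlap, Tex14, Sept4 and Mtmr4 on chromosome 11 (87405065 to 87616302) were all lower, with changes of -1.49, -1.32 and -0.40. Sept4 and Mtmr4 are 1.62 kb apart on the same strand. On chromosome 9, Stra6, Islr and Loxl1 (58063788 to 58313186) were all higher, by 0.89, 1.06 and 1.2. Mr1, Stx6 and BC034090 on chromosome 1, Doc2b, Rph3al and Rflnb on chromosome 11, and Abca4, Gclm and Bcar3 on chromosome 3 were further runs of 3 higher genes. Mndal (-1.15) and Ifi203 (-1.05) are overlapping members of an interferon-induced family with near-identical copies, and their values are uncertain for that reason. Leave-one-out fits lost the call in 2 of 9 for Islr, in 5 of 9 for Nefm and Prkar1b, in 6 of 9 for Doc2b, Mtmr4, Rflnb and Rph3al, in 7 of 9 for Gabbr2 and in 8 of 9 for Stx6.

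Called genes had long annotated spans. The annotated span, introns included, had a median of 75.1 kb for the 225 protein-coding lower genes and 46.9 kb for the 210 higher ones, against 24.9 kb for all 13954 tested. In the class over 300 kb, which held 484 genes, 10.7% were lower and 4.34% higher. Between 100 and 300 kb 2.86% were lower and 2.61% higher, and between 30 and 100 kb 1.14% and 1.52%. Between 10 and 30 kb 0.826% were lower, the smallest share, and 1.21% higher. Up to 10 kb the shares were 1.31% lower and 0.952% higher. The median change of the longest class was nevertheless -0.03, close to that of all genes. Grik2, Reln, Cadps2 and Dlg2 are among the long lower genes and Sdk2 and Ptprg (0.57) among the long higher ones.

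Several families held no called gene or very few. As 2.68% of all genes were called, counts this small are near the share of all genes. Without adjustment, 1112 genes with a change below 0 and 1475 with a change above 0, of all 17325 tested, had p under 0.05 (limma). Of 79 cytosolic ribosomal proteins 0 were called by limma and 12 had an unadjusted p under 0.05. The 46 complex I subunits gave 0 and 8 in the same order, the 36 mitochondrial genome transcripts 0 and 0, and the 18 genes of the amino acid stress response 0 and 6. Of 48 replication-dependent histones 1 was called, Hist3h2ba (-0.46), a share of 2.08% beside 2.68% for all genes. Its call was lost in 7 of 9 fits without 1 library, and its change was -0.69 in batch 1 and -0.18 in batch 2.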

How the data were processed

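Total RNA of purified GNPs was sequenced as single-end reads of 50 bases. Per the labels and the methods, the authors aligned the reads to mouse transcripts (mm10, Ensembl) with Bowtie 1.0.0 and RSEM 1.2.15 and deposited gene-level TPM values, 1 column per library. TPM values keep no sequencing depth, so the precision behind a value is known only from the spread between libraries.

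From the deposited TPM, log2(TPM + 1) was fitted with limma 3.58.1 (R 4.3.3), whose eBayes step allowed the variance to follow intensity, on all 14 libraries, with genotype and sequencing batch as terms, for genes that reached 1 TPM in 4 or more libraries, and p-values were adjusted over all 17325 genes by Benjamini-Hochberg. The study's batch correction (ComBat) and rank test were not run. The fit was tested on simulated data. Alternatives changed the pseudocount, filter, scaling, trend, batch term, replicate block and libraries. Symbols and positions came from GENCODE M21 (GRCm38) and promoters from RefSeq (GRCm38.p6), for 11524 of the genes tested.

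Genes named were Chd7 and Atoh1, the 15 largest falls and rises among called genes with a mean of at least 5 TPM whose libraries did not overlap within batches, up to 6 called members per list by adjusted p, and called markers. Others are stated as chosen after their values were seen, and further called members of a list are named where its count is given. The members, lists and families were chosen with earlier results of these data known. Some called genes are not reported here.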

Additional observations from a re-analysis of the deposited data

Results flagged for a closer look

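For each gene named in the text, the highest or the lowest library of the WT and of the Hom group was compared with the others by Dixon's ratio of the gap to the range. Of 356 groups, 24 (6.74%) held such a library, and chance gives about 1 in 20. Hom 2 stood apart from the other libraries of its group for Doc2b (10.7 TPM), Gpm6a (378 TPM) and Gria2 (94.3 TPM). Hom 3 stood apart from the other libraries of its group for Gclm (63.2 TPM) and Tubb2b (1552 TPM). Hom 4 stood apart from the other libraries of its group for Antxr1 (28.4 TPM), Casq1 (2.54 TPM), Dlg2 (23.5 TPM), Epha6 (0.85 TPM), Flnc (13.9 TPM), Myh3 (7.24 TPM), Pcsk2 (10.03 TPM) and Sdk2 (11.4 TPM). WT 3 stood apart from the other libraries of its group for Cacna1i (0.75 TPM). WT 4 stood apart from the other libraries of its group for Doc2b (3.52 TPM), Hmgcs1 (223 TPM), Igsf3 (58.2 TPM) and Ntm (41.2 TPM). WT 5 stood apart from the other libraries of its group for Atoh1 (50.6 TPM), BC034090 (59.8 TPM), Fos (666 TPM), Jund (216 TPM), Rph3al (10.5 TPM) and Wls (23.3 TPM).

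The change between Hom and WT differed between the sequencing batches for 2 of 17325 genes (0.0115%), by an interaction term in limma with an adjusted p under 0.05. The change in batch 2 minus that in batch 1 was -0.80 for Coro1c, a coronin that binds actin (adjusted p 0.0495), and -3.97 for Gm3608, an uncharacterized gene (adjusted p 0.0252). Neither gene was called between Hom and WT over both batches, and none of the 465 called genes had such a difference at that threshold, while 67 had an unadjusted interaction p under 0.05.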

How the results depend on the processing

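The 245 lower and 220 higher genes became 123 and 136 with only the WT and Hom libraries in the model, 79 and 83 within batch 1 and 4 and 0 within batch 2. Without a batch term 163 genes were lower. In the model with glial and endothelial markers, a covariate added after seeing the data, 135 were higher. With the replicate number of the labels as a replicate block 144 were lower and 115 higher. The labels do not say that a number marks a shared litter or day, and the correlations of same-numbered libraries, -0.057, -0.100, 0.124 and -0.227 for numbers 1 to 4, did not show that they pair. Without 1 WT or Hom library at a time the lower genes numbered 147 to 234 and the higher genes 137 to 210. The cause of these differences was not tested beyond the smaller number of libraries in some fits. The other alternatives (pseudocount, filter, scaling, trend, the batch of Het 3 and, added after seeing the data, a Y-linked covariate) kept both counts within 1.5 times, and no scaling moved the median of all genes by over 0.03. The change of Chd7, -0.11 over all libraries, was -0.77 within batch 2 and -0.64 with the glial and endothelial covariates, and turned positive within batch 1 (0.41), without Hom 4 (0.016) and without WT 5 (0.087), with a range of -0.22 to 0.087 over fits without 1 library. Atoh1, positive over all libraries, was at -0.010 with only WT and Hom libraries, -0.34 within batch 2, -0.28 with the glial and endothelial covariates, -0.019 with median-ratio scaling, -0.014 with quantile normalization and -0.19 to 0.23 without 1 library at a time. TPM gives no depth, so that values near 0 cannot be told from no reads.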
